A study of Mus musculus with 6 samples.

Results

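Macrophages of the Cx3cr1 Trem2 endoneurial type were selected among single cells of the mouse sciatic nerve, where 1345 of 50973 kept nerve barcodes were members. Members were chosen by detection of transcripts: at least 3 of C1qa, C1qb, C1qc, Csf1r and Adgre1, at least 1 of Cx3cr1 and Trem2, at most 1 of the 5 Folr2-group genes Fcna, Lyve1, Folr2, Cd163 and Clec10a, and none of Sox10, Pdgfra and Cdh5. The members were 1345 of the 3438 barcodes that met the macrophage and lineage criteria (core-gate macrophages). Another 1776 had at least 2 Folr2-group genes (Folr2-type macrophages), and 317 met neither definition. The word endoneurial is a working name, since no position in the nerve was measured.

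Nerve macrophages clear debris and survey the tissue around axons and Schwann cells. Cx3cr1 is the receptor for the chemokine fractalkine, Trem2 a lipid-sensing receptor that signals through Tyrobp, C1qa a chain of complement C1q, and Csf1r the receptor on which macrophages depend for survival. Macrophages inside the nerve fascicles are known to share part of the microglial expression programme, and those of the outer nerve sheaths to carry scavenger receptors such as Folr2, Lyve1 and Cd163.

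Nerves came from wild-type C57BL/6 mice at postnatal days 0, 7, 14, 28 and 60 (P0, P7, P14, P28 and P60), with no treatment named, and were dissociated with enzymes. Each age was 1 library, pooled from 22, 21, 18, 15 and 13 animals in that order, and the labels give males and females for every pool. A ganglion library of 8 animals at P14 was not part of the comparisons. With 1 library per age a difference between ages had no replicate check and no p-value, and the intervals given (95%, exact) cover counting error only. The members numbered 137, 258, 414, 276 and 260 from P0 to P60, with a median of 8157, 5100, 4860.5, 3239 and 6641.5 unique molecular identifiers (UMIs, counted transcripts) per barcode. The nerve libraries shared between 15 and 40 barcode sequences per pair, at most 0.362% of the smaller library.

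The P28 and P60 libraries stood apart in 1 respect. Xist, the transcript of the inactive X chromosome in females, was at 452, 894 and 479 CPM (a gene's UMIs scaled to the same total in every sum) over kept barcodes at P0, P7 and P14, but at 0.515 at P28 and 0.275 at P60. Y-linked transcripts were found at every age. Members had 398, 2083 and 1174 Xist UMIs at the first 3 ages and 0 at P28 and P60. The P28 and P60 pools therefore went against their labels of both sexes, and sex and age cannot be told apart in comparisons of these libraries with the earlier ones. Members with a Y-linked UMI and no Xist UMI numbered 39 at P0 and 149 at P60, and comparisons of those ages are also given for them.

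RNA of other cells was present in the member barcodes. The 15 Schwann cell genes summed to 1592, 5668, 567, 1013 and 366 CPM in members from P0 to P60, against 20246 to 125136 CPM in barcodes with Sox10 and no core macrophage gene, called Sox10 barcodes here. Of the 14 fibroblast genes the sum was 752 to 3611 CPM, highest at P28. Of the 13 lymphocyte genes it was 211 to 385 CPM in members, 150 to 382 CPM in Folr2-type macrophages and at most 16.7 CPM in Sox10 barcodes. From P0 to P60, 8, 9, 1, 5 and 9 of these genes were at 0 in members. Whether their RNA came from other cells was not tested. Of the 10 mast cell genes the sum was at most 7 CPM, with Cpa3, Tpsab1, Mrgprb2, Fcer1a and Ms4a2 at 0. Neutrophil genes summed to at most 62 CPM, with Ly6g, Ngp and Camp at 0. The part of this RNA in the results below was not tested, except where values without such barcodes are given.

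The selecting genes are described first, without a test. Cx3cr1 in members was at 1641, 1507, 1486, 633 and 649 CPM from P0 to P60. The first 3 ages were close together and the last 2 lay below them, in the libraries that also lacked Xist. Trem2 was at 968, 1084, 539, 464 and 369 CPM, so that its lower level began at P14. C1qa stayed between 3987 and 4866 CPM and Csf1r between 1017 and 1295 CPM, without an order by age. In Sox10 barcodes C1qa and Csf1r were at 0 by construction, and Cx3cr1 reached at most 3.84 CPM and Trem2 at most 1.30 CPM there. Folr2-type macrophages also carried both genes, with Cx3cr1 at 421, 1401, 814, 401 and 354 CPM and Trem2 at 263, 952, 279.8, 298 and 208 CPM. In 947 of the 1219 Folr2-type barcodes at P60 at least 1 of the pair was detected. At P7 the levels of both genes in the 2 types were close.

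**Figure D1:**
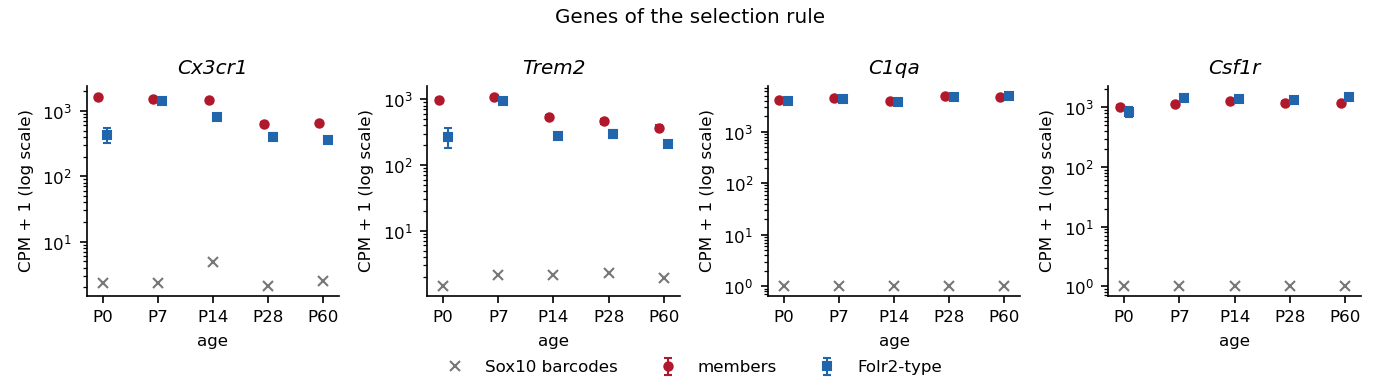
Level of 4 selecting genes (CPM + 1, log scale) by age in members (red circles), Folr2-type macrophages (blue squares) and Sox10 barcodes (grey crosses), 1 library per age with 95% exact Poisson intervals. Cx3cr1 in members was at 1641 CPM at P0 and 649 CPM at P60 and Trem2 at 968 and 369 CPM, while C1qa stayed between 3987 and 4866.

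Detection defined the members' edges. Of the 1345 members, 840 had all 5 core genes, 428 had 4 and 77 had 3, and 70 barcodes outside had 2 with the other criteria met. No Folr2-group gene was detected in 702 members and 1 in 643, whereas 496 barcodes with Cx3cr1 or Trem2 were outside with 2 such genes. Members with 0 Folr2-group genes were 125 of 137 at P0 but 77 of 260 at P60. Cd163 was the Folr2-group gene most often detected in members at P28, in 45.3% of barcodes, and at P60, in 40.0%. Another 403 barcodes were outside because of a lineage gene.

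Members made up most core-gate macrophages early and a minority at P60. From P0 to P60 the share was 80.1% (73.3 to 85.8), 79.1% (74.3 to 83.4), 56.2% (52.5 to 59.8), 42.1% (38.3 to 46.0) and 16.8% (14.97 to 18.8). The intervals of P0 and P7 overlapped and those of the later ages did not overlap one another. The Folr2-type share was 11.1%, 19.0%, 36.8%, 31.25% and 78.7%, so at P28 both types had a lower share than at P14. Barcodes of neither type numbered 15, 6, 52, 175 and 69, and those at P28 had a median of 1358 UMIs. The lower member share at P28 therefore went with more barcodes of neither type. Since deeper barcodes detect more Folr2-group genes, each barcode was also thinned to 1500 UMIs before the criteria were applied. The shares were then 85.1%, 85.0%, 66.5%, 46.3% and 30.3%, again lower at each age from P14 on, with the difference from all UMIs widest at P60. Members as a share of all kept barcodes lay between 1.38% at P0 and 4.58% at P14, with no order by age. A change in the number of cells of a type cannot be told apart from a change in how well dissociation released them.

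**Figure D2:**
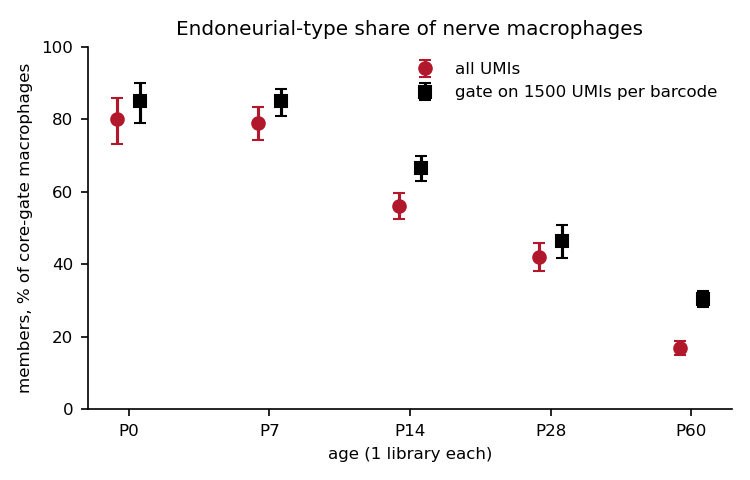
Members as a percentage of core-gate macrophages by age, with 95% Clopper-Pearson intervals, from all UMIs (red circles) and with each barcode thinned to 1500 UMIs (black squares). The share was 80.1% at P0 and 16.8% at P60 from all UMIs, and 85.1% and 30.3% after thinning.

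Genes of antigen presentation by MHC class II had some of the highest ratios between P0 and P60 within members. H2-Aa, the alpha chain of the I-A molecule, was at 22.7, 435, 3024, 6840.0 and 9696 CPM from P0 to P60, 428 times higher at P60 than at P0 (288 to 668). Its partner chain H2-Ab1 was at 16.0, 325, 2826, 6205 and 8909.6 CPM, a ratio of 555 (347 to 953). The beta chain H2-Eb1 of I-E was at 23.6, 307, 3046, 6876 and 9270.2 CPM, a ratio of 393 (266 to 607). For each of these chains every age was above the one before. Cd74, the invariant chain that guides the complex through the cell, was at 265, 1060.5, 9024, 18233 and 23652 CPM. Ciita, the transactivator of these genes, had 0 UMIs at P0 and was at 3.45, 65.9, 105 and 142 CPM afterwards, at least 50.1 times higher at P60 than the 3 UMIs that a count of 0 allows at P0. The peptide loaders H2-DMa and H2-DMb1 were 5.45 (4.63 to 6.45) and 23.2 (16.2 to 34.5) times higher at P60, and the costimulatory ligand Cd86 was at 74.6, 194, 93.5, 142 and 120.4 CPM.

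In all, 3521 genes other than the selecting ones reached 50 CPM and 20 UMIs in the higher of the P0 and P60 libraries. At P60 332 of them (9.43%) were at least 2-fold higher and 409 (11.6%) at most at 0.5 of the P0 level, without a test. Of the 13 listed class II genes 8 reached that minimum, and 7 were at least 2-fold higher and 0 lower. The median log2 ratio of the list was 6.06, against -0.23 over all measured genes. With median-of-ratios scaling, which moved the median of these genes to -0.05, the counts were 461 higher and 283 lower.

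The class II levels were also computed without the barcodes that could carry the difference in sex or in Folr2-group detection. Among members with a Y-linked UMI and no Xist UMI the P60 to P0 ratio was 233 for H2-Aa, 368 for H2-Ab1 and 169 for H2-Eb1. Among members with 0 Folr2-group genes it was 586, 768 and 475. The ratios were thus at least 169 in both restricted sets of members.

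Counted by barcode, at least 2 of H2-Aa, H2-Ab1 and H2-Eb1 were detected in 1.63% (0.198 to 5.75), 4.90% (2.56 to 8.40), 31.4% (26.9 to 36.3), 81.1% (75.3 to 85.9) and 95.7% (92.4 to 97.8) of members from P0 to P60, each barcode thinned to 1500 UMIs. Thinning left out 14, 13, 26, 49 and 5 shallower members, and the unthinned shares were 2.92%, 5.04%, 34.3%, 80.8% and 97.3%. At P14 members with and without class II transcripts were found in the same library. In Sox10 barcodes, which should lack these genes, the share at the same 1500 UMIs was 0.05% to 1.56%. The P0 share in members rested on 2 of 123 barcodes. Folr2-type macrophages showed 0%, 0%, 24.7%, 74.1% and 94.5%. With 15 and 61 Folr2-type barcodes at P0 and P7, the intervals of those shares reached 21.8% and 5.87%.

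Members and Folr2-type macrophages were then compared for class II within libraries. H2-Aa in Folr2-type barcodes was at 0, 0, 2719.5, 5136 and 8377 CPM and Cd74 at 52.6, 57.2, 8433, 14501 and 20102 CPM. Both genes were higher in members in 5 of 5 libraries, yet the log2 difference was 0.92 ± 0.81 (SE) for H2-Aa and 1.05 ± 0.72 for Cd74, and neither passed the quasi-likelihood test of edgeR with adjustment by Benjamini-Hochberg (adjusted p = 0.745 and 0.646). Of 12 class II genes tested 0 passed, and 3 had an unadjusted p below 0.05. A class II difference between the types was therefore not detectable with these libraries.

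**Figure D3:**
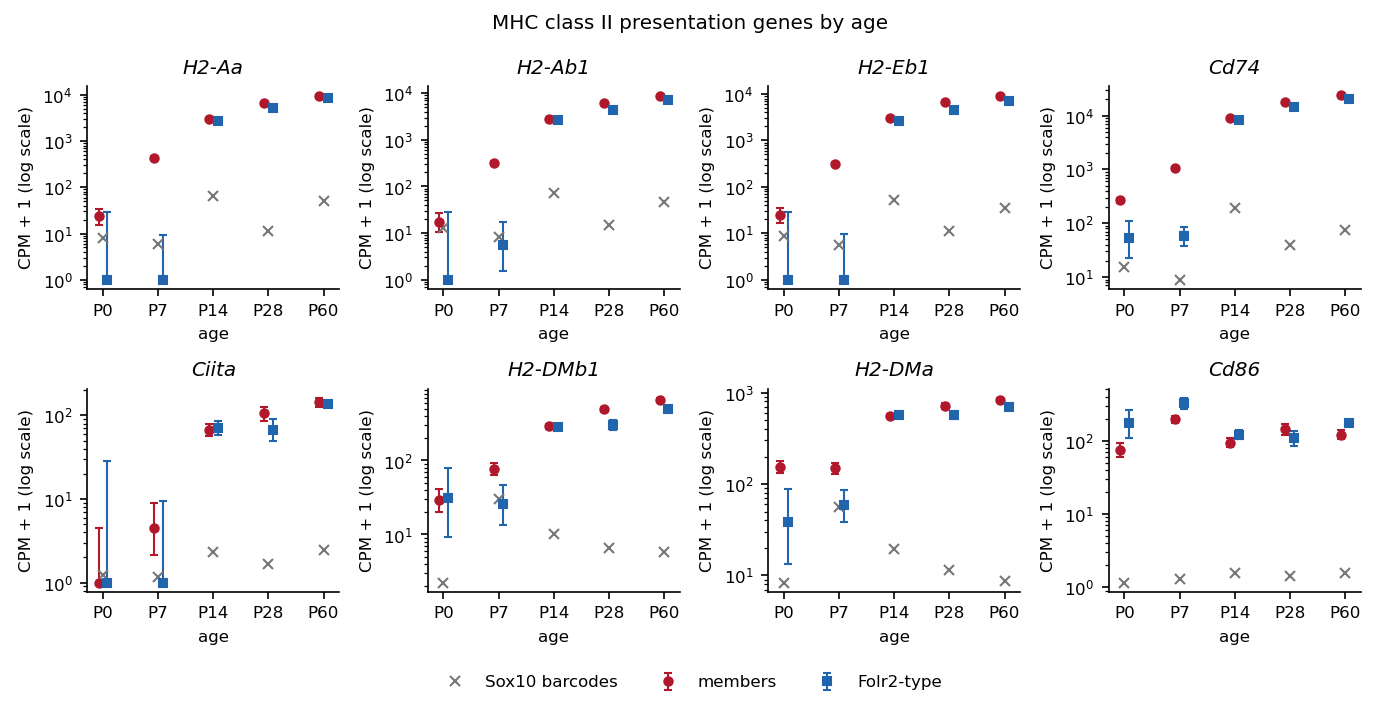
Level of 8 MHC class II presentation genes (CPM + 1, log scale) by age in members (red circles), Folr2-type macrophages (blue squares) and Sox10 barcodes (grey crosses), 1 library per age with 95% exact Poisson intervals. H2-Aa in members was at 22.7 CPM at P0 and 9696 CPM at P60, and Cd86 stayed between 74.6 and 194 CPM.

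Promoters of 3 of these genes are shown because the genes were high together from P14 on. Class II promoters are known for a short conserved array of boxes before the start site, of which the Y box holds the letters ATTGG, or CCAAT on the other strand. The stretches below cover 110 bases before to 10 after the annotated start, 5′ to 3′ on the gene's strand, from RefSeq on GRCm38.p6, with ATTGG or CCAAT in capitals. H2-Aa lies at chr17:34287814-34287933 on the minus strand, H2-Eb1 at chr17:34305757-34305876 and H2-DMb1 at chr17:34153081-34153200, both on the plus strand.
H2-Aa: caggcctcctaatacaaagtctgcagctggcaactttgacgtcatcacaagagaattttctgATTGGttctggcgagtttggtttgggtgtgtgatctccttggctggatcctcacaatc
H2-Eb1: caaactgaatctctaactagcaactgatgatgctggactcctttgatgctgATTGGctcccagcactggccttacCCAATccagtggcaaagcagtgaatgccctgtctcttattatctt
H2-DMb1: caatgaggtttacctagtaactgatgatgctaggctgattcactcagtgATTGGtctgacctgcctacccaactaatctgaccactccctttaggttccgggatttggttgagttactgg

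ATTGG began 48 bases before the start in H2-Aa, 59 in H2-Eb1 and 61 in H2-DMb1, and H2-Eb1 also held CCAAT 35 bases before it. In the full windows of 250 bases before to 50 after the start, the motif on either strand was in 7 of the 8 listed class II genes with an entry, and in 41.1% of 27025 genes of the table. H2-Ab1 had no entry. The motif was in 43.1% of the 255 matched genes at least 2-fold higher at P60 and in 49.1% of the 322 at most at 0.5. GAGGAAGT, a binding motif of PU.1, and the interferon-stimulated response element, both searched on either strand, were in 0 of the 8 class II genes, against 3.69% and 3.99% of all. These are matches of letters and no evidence of binding.

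Retnla and Mgl2 were higher at the later ages too. Retnla, a secreted resistin-like protein, had 0 UMIs in members at P0 and P7 and was at 2947, 4617 and 4948 CPM from P14 on. At P60 that was at least 1747 times the P0 limit of 3 UMIs, and at least 773 times among members with a Y-linked and no Xist UMI. After thinning the ratio was 137, which can be a lower limit too, since the same 3 UMIs replace a count of 0. Folr2-type macrophages had 10831, 7118 and 4816 CPM at those ages, and Sox10 barcodes at most 33.4 CPM. Members with 0 Folr2-group genes carried it as well, at 3589.8, 4140.3 and 5434 CPM, in 31.6%, 33.3% and 32.5% of barcodes. Mgl2, a galactose-binding lectin, was at 0, 23.5, 163, 728 and 1238 CPM. Retnla was thus present in members from P14 on whether or not a Folr2-group gene was detected.

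Clec4b1, a C-type lectin receptor, was at 0.944, 15.9, 103, 199.6 and 255 CPM, and Lyz1, a lysozyme, at 0, 8.98, 20.8, 55.3 and 651 CPM. Ear2, an eosinophil-associated ribonuclease, was at 0.944, 18, 132, 47.4 and 106 CPM, highest at P14. The P60 to P0 ratio of Ear2 was 112, that of Lyz1 at least 229.7 and that of Clec4b1 269.7. After thinning these ratios were 0.545, 6.32 and 50.4. The thinned ratios can be lower limits, since a floor replaces a count of 0, but the unthinned ratio of Lyz1 used that floor as well. Thinning also changed which barcodes were members, with 154 at P0 instead of 137 and 471 at P60 instead of 260. The levels at P60 can therefore differ too, and the part of each in the lower ratios was not tested. Before thinning, Ear2, Lyz1 and Clec4b1 had 1, 0 and 1 UMIs at P0. Of the 13 connective tissue macrophage genes that reached the minimum 6 were at least 2-fold higher at P60 and 1 lower, Ednrb. Of 15 monocyte genes 8 reached it, 7 at least 2-fold higher and 1, Plac8, lower. Ccr2, the receptor of monocytes entering tissue, was at 218, 117, 907, 1077 and 956 CPM in members, and at most 13.4 CPM in Sox10 barcodes. Lyz2 was at 992, 3205, 5388, 6720.4 and 12720.4 CPM, and Ly6c2, a marker of fresh monocytes, at 0 to 11.3 CPM. The 15 dendritic cell genes summed to 77.4, 75.3, 195, 193 and 251 CPM in members. Their sum was 67.7 to 291 CPM in Folr2-type macrophages and 92.9 to 226 CPM in Sox10 barcodes. Only 2 of these genes reached the minimum, with 2 at least 2-fold higher at P60 and 0 lower. The part of monocyte-derived or dendritic cells in these levels was not tested.

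Lipid handling had genes higher and genes lower at P60. Apoe, the main lipoprotein of macrophages, was at 32739, 33878, 17392, 9649 and 15846 CPM, with a P60 to P0 ratio of 0.484 (0.476 to 0.492). Pltp, a phospholipid transfer protein, was at 9.44, 97.4, 236, 434 and 522 CPM, a ratio of 55.3 (29.9 to 116). The fatty acid receptor Cd36 was 23.8 times higher (15.8 to 37.7), or 149 times after thinning. Cd36 had 23 UMIs at P0 before thinning, so the thinned ratio rests on few UMIs there. The cholesterol exporters Abca1 and Abcg1 were at ratios of 0.268 and 0.221. Of 14 measured genes of cholesterol export and lipid handling 3 were at least 2-fold higher and 4 at most at 0.5. Of 14 measured lipid-associated and disease-associated genes 4 were higher, among them Clec7a at 50.0, 137, 262, 277 and 237 CPM, and 3 lower. Fabp4, also an endothelial gene, was 12.8 times higher, but its ratio was 0.796 among members with 0 Folr2-group genes, and its level in Sox10 barcodes was 3459.9 CPM at P14.

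Several genes known from microglia were lower at the later ages. Tmem119, a microglial membrane protein, was at 148, 94.0, 48.3, 9.88 and 6.63 CPM from P0 to P60, each age below the one before. In the same libraries P2ry12, the purinergic receptor of resting microglia, was at 109.5, 133, 91.2, 49.4 and 39.8 CPM. Sall1, the transcription factor that sets microglial identity, was at 3.78 CPM at P0 and 0 at the other ages. Among the 14 measured homeostatic microglia genes 6 were at most at 0.5 of the P0 level and 1, Siglech, at least 2-fold higher. Crybb1, a crystallin known from immature microglia, was at 144, 43.5, 4.52, 0 and 0.552 CPM, and Cryba4 at 99.1, 62.2, 7.22, 0.988 and 0.552 CPM. Apoc1, an apolipoprotein, was at 284, 98.8, 5.87, 0 and 3.31 CPM. Folr2-type macrophages had Crybb1 at 399, 68.7, 0.658, 0 and 0.343 CPM, so its lower levels at later ages were seen in both types.

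Rapsn, Gpm6b, Dlk1 and Epha5 completed the lowest ratios, between 0.00643 and 0.0167, together with Xist, described above. Gpm6b was at 85.9, 46.3, 3.16, 31.6 and 0.552 CPM in members and Dlk1 at 51.0, 42.1, 1.35, 5.93 and 0.552 CPM, each resting on 1 UMI at P60. In Sox10 barcodes Gpm6b was at 645 to 1505 CPM, Epha5 at 167 to 863 CPM and Dlk1 at 6.23 to 200 CPM, but Rapsn at 0.633 to 8.31 CPM. Rapsn in members was at 63.2, 81.5, 9.93, 1.98 and 0.552 CPM, above its level in Sox10 barcodes at P0, P7 and P14. The summed Schwann cell genes in members were 1592 CPM at P0 against 366 at P60.

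A few degradation and iron genes were lower late as well. Lgmn, an endosomal protease, was at 1905, 1871, 777, 563 and 591 CPM, and Ctsl at a P60 to P0 ratio of 0.309 (0.263 to 0.361). Of 13 measured lysosomal genes 2 were at most at 0.5 and 0 at least 2-fold higher. Hmox1, which breaks down haem, was at 775, 517, 90.8, 106 and 152 CPM. Of 8 measured iron and haem genes 1 was at most at 0.5 and 0 at least 2-fold higher. Over all measured genes 11.6% were at most at 0.5, so neither list as a whole stood apart. The interferon-response genes Irf7 and Oasl2 were highest at P0, at 109.5 and 78.4 CPM, and at most 7.73 and 24.9 CPM later. Of 7 measured interferon genes 4 were at most at 0.5 and 1, Irf1, at least 2-fold higher.

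Cell division genes were lower at P60 than at P0. Summed over 18 genes of DNA replication and mitosis, members had 2122, 1858, 2239.6, 1098 and 836 CPM, and 11 of 13 measured genes were at most at 0.5 of the P0 level. Mki67, present in dividing cells, was at 87.8, 163, 311, 69.2 and 28.2 CPM, highest at P14. Ube2c, of the mitotic ubiquitin ligase, was at 181, 111, 108, 8.89 and 9.39 CPM. In Folr2-type macrophages Mki67 was at 165, 119, 291, 35.0 and 37.6 CPM, also highest at P14, whereas their summed genes were highest at P0, at 2692 CPM. With each barcode thinned to 1500 UMIs, at least 2 of the 18 genes were detected in 48.8%, 24.9%, 27.3%, 24.7% and 20% of members. By that share P0 stood above the other ages, and P28 was level with P7. Sox10 barcodes had shares of 39.95% at P0 and 6.23% to 9.34% later.

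Stress genes followed an order of libraries that other cells shared. The 18 immediate early and heat shock genes summed to 4123, 16299, 5226, 11455 and 15408 CPM in members, and to 2519, 10832, 2970, 9654 and 13736 CPM in Sox10 barcodes. In both, P7, P28 and P60 were high and P0 and P14 low, and 16 of the 18 genes were at least 2-fold higher at P60 than at P0 in members. Fos was at 317, 2044, 619, 1539 and 1679 CPM in members. Cxcl2, a neutrophil chemokine, was at 117, 470.5, 124, 557 and 1271 CPM, and Il1b, an inflammatory cytokine, at 1.89, 88.4, 4.52, 46.5 and 150.2 CPM, low in the same libraries. The P60 to P0 ratio of Il1b was 79.6, and 9.48 after thinning. The thinned ratio can be a lower limit, since Il1b had only 2 UMIs at P0 before thinning. Of 10 measured chemokines 8 were at least 2-fold higher at P60 and 0 lower. The 16 listed chemokines summed highest at P7 in members, at 5158 CPM, but at P14 in Sox10 barcodes, at 1022 CPM. In Sox10 barcodes Cxcl2 was at 2.27, 7.07, 0.576, 11.5 and 8.61 CPM and Ccl2 at 4.08, 14.1, 4.03, 184 and 122 CPM. Both were lowest at P0 and P14 there, as in members, where Ccl2 was at 81.2, 529, 186, 605 and 453 CPM. A shared order was thus seen for these 2 chemokines but not for the summed list. Il1b was at most at 0.297 CPM in Sox10 barcodes, too low to compare. The part of tissue dissociation in these levels was not tested.

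**Figure D4:**
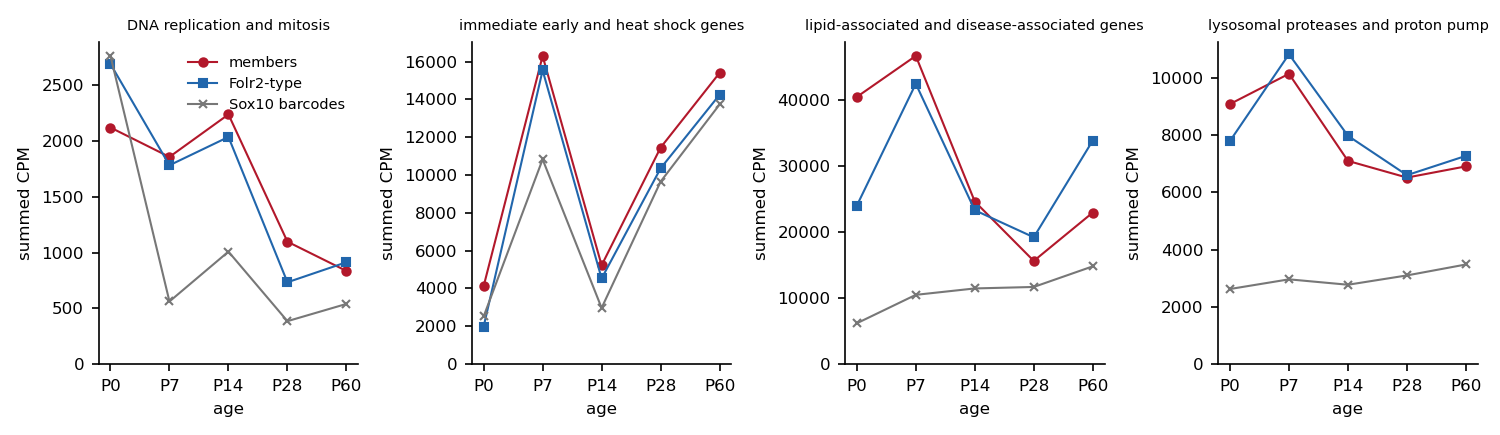
Summed CPM of 4 gene lists by age in members (red circles), Folr2-type macrophages (blue squares) and Sox10 barcodes (grey crosses), 1 library per age. Replication genes in members were at 2239.6 CPM at P14 and 836 CPM at P60, and immediate early genes were high at P7, P28 and P60 in members and in Sox10 barcodes alike.

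The second comparison set members against Folr2-type macrophages of the same library, with the library as a block and the selecting genes left out. Of 10660 genes tested over 5 libraries 392 (3.68%) passed the quasi-likelihood test of edgeR with adjustment by Benjamini-Hochberg at 0.05, 216 (2.03%) higher and 176 (1.65%) lower in members, and 1576 had an unadjusted p below 0.05. Il1b and Tgfbr1 were among the genes higher in members, and F13a1, Colec12 and Slc40a1 among those lower. The P0 sum of Folr2-type macrophages held 19 barcodes and 17907 CPM of 8 erythroid genes, against 245 CPM in members. The 216 and 176 became 40 and 68 without P60, 50 and 78 without P14, and 125 and 164 without P28. DESeq2 called 130 and 111, and without the library block edgeR called 0 and 0.

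Among the genes higher in members, Il1b was at 1.89, 88.4, 4.52, 46.5 and 150.2 CPM in members and 0, 61.8, 3.95, 27.4 and 37.2 in Folr2-type macrophages. Members were higher in 5 of 5 libraries, though by little at P14, and the log2 fold change was 1.51 ± 0.27 (SE; edgeR adjusted p = 0.0138 after Benjamini-Hochberg adjustment). At P0 it rested on 2 UMIs in members. Without P60 the log2 fold change was 0.63 and the call was lost, as it was without P0 (1.54), with a core gate of 4 genes (1.67) and in DESeq2 (1.06). Tgfbr1, the receptor through which TGF-beta maintains microglia, was at 200.1, 135, 134, 144 and 97.7 CPM in members against 60.2, 112, 59.2, 82.1 and 48.9 (log2 fold change 1.00 ± 0.13; edgeR adjusted p = 1.00e-04 after Benjamini-Hochberg adjustment). Olfml3, a secreted microglial protein, was at 133, 134, 46.5, 53.4 and 32.0 CPM against 22.6, 96.2, 21.1, 47.1 and 11.3, so that members were higher in 5 of 5 libraries while the ranges over ages overlapped. Lpcat2, which makes platelet-activating factor, Ccrl2, an atypical chemoattractant receptor, Sowahc, Rtcb, an RNA ligase, and the long non-coding RNA AU020206 completed the 8 highest, with log2 fold changes of 0.97, 0.91, 1.17, 0.90 and 1.27.

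Runx3, a transcription factor, was at 47.2, 15.2, 50.6, 36.6 and 43.1 CPM in members against 7.52, 11.4, 25, 21.3 and 12.6 (log2 fold change 1.39 ± 0.20). Of 24 transcription factors tested 1 rose and 2 fell, Maf by 0.62 and Tfec by 1.37 on the log2 scale. Axl, a receptor in the uptake of dying cells, rose by 0.77, Cd9, a tetraspanin, by 0.61 and Clec7a, the beta-glucan receptor dectin-1, by 0.54, while the protease Ctsb fell by 0.39 among 18 lipid-associated and disease-associated genes. Cd9 was higher in 4 of 5 libraries and at 619 to 6652 CPM in Sox10 barcodes. The chemokines Cxcl14 and Cxcl16 rose by 2.15 and 0.61, of 13 tested. Cxcl14 was at 11.1 to 46.5 CPM in members and at 6.07 to 94.9 CPM in Sox10 barcodes. Its log2 fold change was 1.33 without P60, and its call was lost with members of 0 Folr2-group genes (2.49). The call of Cxcl16 was lost without barcodes carrying other-cell markers (0.38). Mmp12, macrophage elastase, was at 0, 1.38, 16.7, 12.8 and 12.7 CPM in members and at 0, 0, 1.32, 0 and 0.799 CPM in Folr2-type macrophages, a fitted log2 fold change of 4.00 ± 0.52 that rests on few UMIs in the latter.

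**Figure D5:**
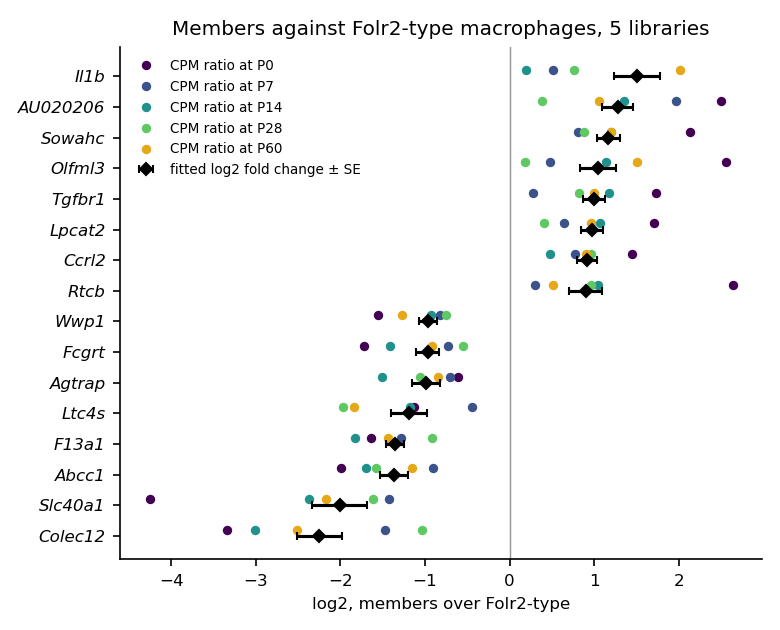
Log2 difference between members and Folr2-type macrophages for the 8 genes highest and 8 lowest under the naming rule, as the fitted fold change with its SE (black diamonds) and as the CPM ratio in each library where both types had UMIs (coloured circles). F13a1 lay between its library values at -1.35, and Il1b at 1.51 had its highest library ratio at P60.

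Of the genes lower in members, F13a1, the A chain of coagulation factor XIII, was at 556, 308, 390.1, 343 and 499 CPM in members and at 1729.8, 749, 1386, 649 and 1351 in Folr2-type macrophages. The types did not overlap at any age, and the log2 fold change was -1.35 ± 0.11 (edgeR adjusted p = 7.06e-08 after Benjamini-Hochberg adjustment). Colec12, a scavenger receptor, was at 14.2, 34.5, 12.2, 14.8 and 12.1 CPM against 143, 96.2, 98.1, 30.4 and 69.1 (log2 fold change -2.25 ± 0.27). Slc40a1, the iron exporter ferroportin, was at 9.44, 177, 22.6, 0.988 and 3.87 CPM against 180.5, 474, 117, 3.04 and 17.5. It was lower in members in 5 of 5 libraries and near 0 in both types at P28. Its log2 fold change of -2.01 lost its call without P14, P28 or P60, and was -1.09 without barcodes carrying other-cell markers, again with no call. Abcc1, Ltc4s, Agtrap, Fcgrt and Wwp1 fell by 1.37, 1.19, 0.98, 0.97 and 0.96 on the log2 scale. Abcc1 exports leukotriene C4, which Ltc4s makes.

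By list, 9 of 19 connective tissue macrophage genes fell and 0 rose, with a median log2 fold change of -1.19 against 0.01 over all genes tested. That list was drawn up with earlier results of these data known, and it names the type that Folr2-group genes mark. Its lectins Cd209f and Cd209g were nearly absent from members, with Cd209f at 0, 0, 1.35, 0.988 and 0 CPM against 0, 43.5, 462, 69.9 and 105. Their fitted log2 fold changes of -8.17 and -6.81 rest on few UMIs in members. Of 11 complement genes beyond C1q 3 fell, among them C2 by 1.42 and C5ar1, the receptor of the fragment C5a, by 0.40 on the log2 scale, and 0 rose. C5ar1 was at 121, 194, 79.5, 111 and 224 CPM in members against 143, 321, 117, 138 and 290.4. Blvrb, a haem-degrading reductase, fell by 0.74 besides Slc40a1 among 11 iron genes. Of 16 semaphorins, plexins and neuropilins 3 fell, Nrp1, Nrp2 and Sema6d, and Sema4d rose by 0.61. Timp2 and Adam19 fell by 0.53 and 0.43. Msr1 and Fcgr2b, scavenger and Fc receptors, fell by 0.61 and 0.41. Several of these calls were close to the threshold: of 17 settings, the reported one included, Adam19 passed in 4, C5ar1 in 7, and Fcgr2b and Sema4d in 8 each.

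Several programmes gave no call between the types. None of 17 lysosomal, 18 replication or 14 interferon genes passed the edgeR test with Benjamini-Hochberg adjustment, although 7, 0 and 4 had an unadjusted p below 0.05. Of 16 homeostatic microglia genes 2 rose, Olfml3 and Tgfbr1, and 0 fell. Tmem119, at 148, 94.0, 48.3, 9.88 and 6.63 CPM in members against 22.6, 61.8, 19.7, 12.2 and 0.799, was higher in 4 of 5 libraries with an adjusted p of 0.0630 in edgeR. Dusp1 and Hspa1a rose by 0.48 and 0.66 among 18 immediate early and heat shock genes. Among other-cell markers Mbp rose by 0.36 and no fibroblast, perineurial, endothelial or mural gene passed. Leaving out barcodes with a UMI of any of 3 marker genes of other cells left P14, P28 and P60 with enough barcodes, and 57 genes were then higher and 89 lower.

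Members were last compared among themselves. Both Cx3cr1 and Trem2 were detected in 112, 212, 303, 126 and 169 members from P0 to P60. Trem2 without Cx3cr1 was found in 12, 16, 17, 82 and 40 members, and Cx3cr1 without Trem2 in 13, 30, 94, 68 and 51. Detection depends on depth, and its part in this division was not tested. Of 3224 genes tested 10 (0.31%) were higher and 5 (0.155%) lower in Trem2-only members in edgeR's test with Benjamini-Hochberg adjustment, and 227 had an unadjusted p below 0.05.

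Vim and S100a4 were among the genes higher in Trem2-only members. Vim, the intermediate filament vimentin, was at 1583, 1709.7, 3132, 1569 and 2006 CPM in Trem2-only members and at 1361, 1083, 1696, 1110.5 and 1207 in Cx3cr1-only members (log2 fold change 0.63 ± 0.12). S100a4, a calcium-binding protein, was at 72.0, 346, 804, 766 and 1078 CPM against 0, 172, 439, 419 and 655. Trem2-only members were higher in 5 of 5 libraries for both genes. Crip1, Lmna, a nuclear lamin, and Ftl1, the ferritin light chain, rose by 0.60, 0.96 and 0.37. Itgb5, an integrin that binds vitronectin, fell by 1.33, and the mitochondrial transcripts mt-Nd2, mt-Rnr2 and mt-Nd1 fell by 0.56, 0.46 and 0.44. Of 11 settings mt-Rnr2 passed in 9 and mt-Nd1 in 3, with the other 7 genes between them. The counts were 2 and 1 without P14, 2 and 2 without P28, 5 and 7 without P60, 17 and 7 without P0, and 17 and 3 without P7. DESeq2 called 3 and 0.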

How the data were processed

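The deposited files hold UMI counts per gene and barcode for called cells. Per the file headers, the authors made the P7 counts with Cell Ranger 7.0.0 and those of the other nerve libraries with Cell Ranger 5.0.1, so software and age cannot be told apart at P7. No coordinates were taken from the files. How introns were treated is not given in the sources used here. Genes shared by identifier number 52081 and hold 96.1% to 99.4% of the UMIs of the nerve libraries.

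Barcodes with at least 500 UMIs, 300 genes and at most 20% mitochondrial UMIs were kept. Libraries held 60763221 to 101441907 UMIs, and the members' sums 1011841 to 2214687, which sets the precision of CPM. Members and gene lists were chosen with earlier results of these data known. The genes named are the 8 highest and 8 lowest (5 each among members) and up to 3 per list (2 for ages) that passed, with at least 50 CPM and the same sign in every library for the former. Other genes are named to complete a description and were chosen after their values were seen. Results for some genes are not reported here.

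UMIs were summed per library and type and tested with edgeR 4.0.16 (TMM, filterByExpr, robust quasi-likelihood, library as block, two-sided) in R 4.3.3, on sums of at least 10 barcodes. The block is warranted because the 2 sums of each library share its pooled animals. On simulated counts the class test recovered 97.4% of 194 genes changed 4-fold among 10830, with 4 false calls. The simulation had a fixed dispersion and the same change in every library. It does not give the recovery of smaller changes or the false calls in the real counts. Levels are CPM with exact Poisson intervals, shares have Clopper-Pearson intervals and ratios exact conditional ones, all at 95%, with 3 UMIs as the floor for 0. Doublets were scored with Scrublet in scanpy 1.11.5, where the top 8% served at P0 because its own threshold called 0%, and were removed only as an alternative. Alternatives were DESeq2 1.42.0, relative log expression normalization, no expression filter, no block, each library left out, stricter barcode and gate criteria, and thinning to 1500 UMIs. Restricting the age comparison to members with Y-linked and no Xist UMIs, or with 0 Folr2-group genes, was chosen after seeing the data.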

Additional observations from a re-analysis of the deposited data

Results flagged for a closer look

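The P14 ganglion library, which entered no comparison, held 12 nuclei of 5839 kept that met the member criteria, a share of 0.206% (0.106 to 0.359), above the 0.0514% that a count of 0 would allow. Of these 12 nuclei 8 had Cx3cr1 and 4 Trem2 detected, and none had both. They held 28911 UMIs in all, too few for levels of most genes.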

How the results depend on the processing

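The class comparison kept its counts within 1.5 times under relative log expression normalization, no filter, doublet removal, a core gate of 4 genes, members with 0 Folr2-group genes, the strict barcode filter and thinning. It moved to 130 higher and 111 lower with DESeq2, 0 and 0 without the replicate block, 338 and 293 against Folr2-type barcodes without Cx3cr1 and Trem2 (P14, P28 and P60), and 57 and 89 without barcodes carrying any of 3 marker genes of other cells. Leaving out each library in turn gave 40 to 265 higher and 68 to 239 lower. For Trem2-only members the counts were 3 and 0 with DESeq2, 0 and 0 without the block, 18 higher after doublet removal, which also left P0 with too few barcodes, and 9 lower without a filter, and 2 to 17 higher and 1 to 7 lower with each library left out. The cause was not tested. Of the log2 fold changes of named genes, 508 stayed past the threshold and 148 did not in the class comparison, and 40 and 50 among members, and 0 of these changed direction.

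Member shares moved to 86.5% at P0 and 47.3% at P28 under the strict filter, and to 85.0%, 66.5%, 46.3% and 30.3% at P7, P14, P28 and P60 after thinning. The counts of genes by age moved to 624 higher and 856 lower with a minimum of 20 CPM, where more genes were measured. Restriction to members with a Y-linked and no Xist UMI gave 411 and 448. The P60 to P0 ratio changed direction after thinning for Fn1 (0.495), and with 0 Folr2-group genes for Fabp4 (0.796). For Ear2 it was 0.545 after thinning. That value can be a lower limit, since Ear2 had 1 UMI at P0 before thinning, so it shows no change of direction. Of 45 named ratios, 20 others moved beyond their counting interval after thinning, 14 with 0 Folr2-group genes and 15 in the set with Y-linked and no Xist UMIs. Depth limits the results at P0, where Folr2-type macrophages are 19 barcodes. With 5 libraries that are also 5 ages, the class test measures the spread of its difference across ages.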
